A study of Mus musculus with 16 samples.

Results

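The genes of cholesterol synthesis, sterol sensing and cholesterol export were followed in the immune cells of B16 melanomas. The group is 29 of the 32285 genes in each count matrix, taken by their gene symbols, and all 29 symbols were found. By role they were 8 genes of the mevalonate and squalene steps, 10 of the sterol steps, 6 of sterol regulation and transport, and 5 of the liver X receptors and their targets in cholesterol efflux and receptor turnover. The data were droplet single-cell RNA counts from C57BL/6J mice that carried subcutaneous tumours grown from 1000000 cells of Bro4.1, a B16 melanoma line. The implanted cells were either control or B2m-null, which lack the light chain of MHC class I. Each mouse received 100 µg of an antibody that activates CD40 or of a rat IgG2a isotype antibody on days 6, 9 and 12, and tumours were taken on day 14. The labels name 3 hashtags for each pool, but the deposited feature lists hold 3 in 2 lanes and 2 in 6 lanes. Each hashtag listed was taken as 1 mouse, so the numbers of mice rest on these lists. Counted so, isotype groups held 5 mice with control and 5 with B2m-null tumours, and CD40 groups 2 with control and 4 with B2m-null tumours. The sample labels give the genotype as that of the mouse, while the design text puts the loss of B2m in the implanted cells, and the design text was followed. Immune cells were enriched on CD45 magnetic beads, marked with 1 hashtag per mouse and pooled within a group, with 1 lane per pool. The control CD40 mice came from 1 pool run on 2 lanes that the labels call technical replicates, so the pool and the group cannot be told apart there.

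Cells build cholesterol from acetyl-CoA through mevalonate, isoprenoids, squalene and lanosterol. When the sterol content of the endoplasmic reticulum falls, SCAP escorts the SREBP proteins to the Golgi, where they are cleaved and move to the nucleus to switch on the synthesis genes, while INSIG proteins hold the complex back when sterol is plentiful. When oxysterols build up, the liver X receptors (LXR) switch on the exporters ABCA1 and ABCG1 and the ubiquitin ligase MYLIP, which removes lipoprotein receptors from the cell surface. Macrophages are known for high export through this route, and dividing lymphocytes for high synthesis.

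Across the 8 lanes there were 541098978 unique molecular identifiers (UMIs) in 116552 barcodes, from 45985739 to 99264875 per lane. Pairs of lanes shared 41 to 92 barcode sequences. After hashtag doublets were removed, 74355 cells could be given to 1 of 16 mice, and B2m-null isotype replicate 1 stood apart with 26.25% of its barcodes assigned. In the control CD40 pool the first hashtag had a signal of 350 over a background of 185 in lane 1 and 55 over 31 in lane 2. The second had 351 over 50 and 1102.5 over 179. How this weak separation bears on the mice of that pool was not tested. Clustering without the 29 genes gave sets of T cell-like, macrophage-like, monocyte-like and dendritic cell-like clusters, which are rebuilt names and not the authors' annotation. The T cell markers summed to 44.5 to 47.1 UMIs per 10000 in the T cells of control isotype mice and to 0.209 to 0.453 in their macrophages, and the macrophage markers to 1.58 to 2.5 and 103 to 134 in the same order. In melanoma-like cells left in the lanes, B2m measured 10.8 to 21.3 UMIs per 10000 in the 4 control lanes and 1.89 to 4.91 in the 4 B2m-null lanes. Counts were summed per mouse and cell set, and a level is given as UMIs of the gene per 10000 UMIs of all genes in that mouse's cells of the set. The sums held 190982 to 13502042 UMIs per mouse in T cells, 392366 to 25793745 in macrophages, 35272 to 5427370 in monocytes and 189942 to 5675233 in dendritic cells. The T cell set lacked 2 mice of B2m-null isotype pool 1, which had under 20 T cells each. Levels are listed pool by pool, pool 1 first. For B2m-null isotype monocytes, pool 1 mouse 2 had 27 cells, so its values rest on few counts.

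Promoters are shown for Hmgcs1, Idi1 and Cyp51, which fell under CD40 where called, and for Mylip and Abca1, which moved in both directions. Each passed the test in at least 3 comparisons, as did other members that are not shown, such as Ebp. RefSeq sequence (GRCm38.p6, 250 bases before to 50 after the start) was matched for 24 of the 29 members. Capitals mark CCAAT on either strand (CCAAT or ATTGG), the box bound by the factor NF-Y, and in Hmgcs1 also TCACNCCAC, a form of the sterol regulatory element bound by SREBP.
Hmgcs1, chr13:119690101-119690400, plus strand: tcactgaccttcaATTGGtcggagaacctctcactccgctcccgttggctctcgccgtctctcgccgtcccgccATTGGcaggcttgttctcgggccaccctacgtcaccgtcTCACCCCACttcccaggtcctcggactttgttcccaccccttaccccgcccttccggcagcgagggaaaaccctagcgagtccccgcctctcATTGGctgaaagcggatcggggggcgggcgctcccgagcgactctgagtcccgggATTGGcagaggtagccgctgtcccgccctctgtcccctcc
Idi1, chr13:8885356-8885655, plus strand: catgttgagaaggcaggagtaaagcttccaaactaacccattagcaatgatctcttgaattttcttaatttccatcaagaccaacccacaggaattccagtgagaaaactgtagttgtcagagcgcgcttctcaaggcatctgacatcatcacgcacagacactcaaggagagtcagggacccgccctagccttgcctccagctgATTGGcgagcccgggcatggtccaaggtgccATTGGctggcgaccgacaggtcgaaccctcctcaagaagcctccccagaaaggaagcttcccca
Cyp51, chr5:4104648-4104947, minus strand: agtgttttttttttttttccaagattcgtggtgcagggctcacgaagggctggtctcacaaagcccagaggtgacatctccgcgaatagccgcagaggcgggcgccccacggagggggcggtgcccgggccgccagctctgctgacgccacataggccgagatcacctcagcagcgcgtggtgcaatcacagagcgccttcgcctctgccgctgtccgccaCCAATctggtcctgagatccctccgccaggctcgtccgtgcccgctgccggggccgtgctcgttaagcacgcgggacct
Mylip, chr13:45389492-45389791, plus strand: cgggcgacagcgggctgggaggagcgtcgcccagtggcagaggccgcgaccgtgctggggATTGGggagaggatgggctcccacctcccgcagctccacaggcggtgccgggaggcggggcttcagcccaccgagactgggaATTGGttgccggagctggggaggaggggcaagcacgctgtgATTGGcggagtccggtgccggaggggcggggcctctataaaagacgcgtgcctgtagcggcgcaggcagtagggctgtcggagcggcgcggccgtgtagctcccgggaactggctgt
Abca1, chr4:53159846-53160145, minus strand: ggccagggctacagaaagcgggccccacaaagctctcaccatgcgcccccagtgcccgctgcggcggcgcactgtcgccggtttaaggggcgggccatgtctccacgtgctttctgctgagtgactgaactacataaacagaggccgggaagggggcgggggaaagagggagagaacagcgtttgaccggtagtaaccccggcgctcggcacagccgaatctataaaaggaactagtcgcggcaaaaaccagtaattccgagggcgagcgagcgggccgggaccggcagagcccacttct
CCAAT was found in 18 of the 24 member promoters (75.0%), in 13 of 15 for the synthesis genes (86.7%) and in 1 of 4 for the LXR and efflux genes, that of Mylip (25.0%), against 37.9% of 27025 promoters. TCACNCCAC was found in 1 member promoter (4.17%), against 1.22% of all promoters. The exact direct repeat DR4, a pair of AGGTCA separated by 4 letters and a form of the element bound by LXR, was in none of the 24 windows and in 0.0111% of all. Repeats that differ from these letters were not searched for and are not marked. All motifs were searched on both strands, and no 2 matches overlapped in a member promoter. These are matches of letters in a short window, and a window without a match says nothing of the factor.

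Under isotype in control tumours, the 18 synthesis genes summed to 8.0 to 12.6 UMIs per 10000 in dendritic cells, 6.93 to 8.42 in T cells, 6.47 to 8.41 in monocytes and 3.01 to 3.17 in macrophages. The T cell and monocyte ranges overlapped each other, the lowest dendritic mouse lay inside both of them, and the macrophages lay below every mouse of the other sets. Among the 8 mevalonate and squalene genes, 7 had their highest mean in dendritic cells. For export the order turned: 4 of the 5 LXR and efflux genes were highest in macrophages, where the 5 summed to 5.23 to 6.68, and the exception was Nr1h2, the LXR beta gene, which was highest in dendritic cells. The same 5 genes summed to 2.05 to 2.65 in monocytes, 1.45 to 1.81 in dendritic cells and 0.686 to 1.05 in T cells. These sets also differed in depth, with a median of 4413.5 UMIs per dendritic cell, 4304.5 per macrophage, 2131 per monocyte and 1646 per T cell, and its part in the order was not tested. A level compares the same gene between sets and not one gene with another, since the counts come from the 3' end of transcripts and are not scaled to length.

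**Figure D1:**
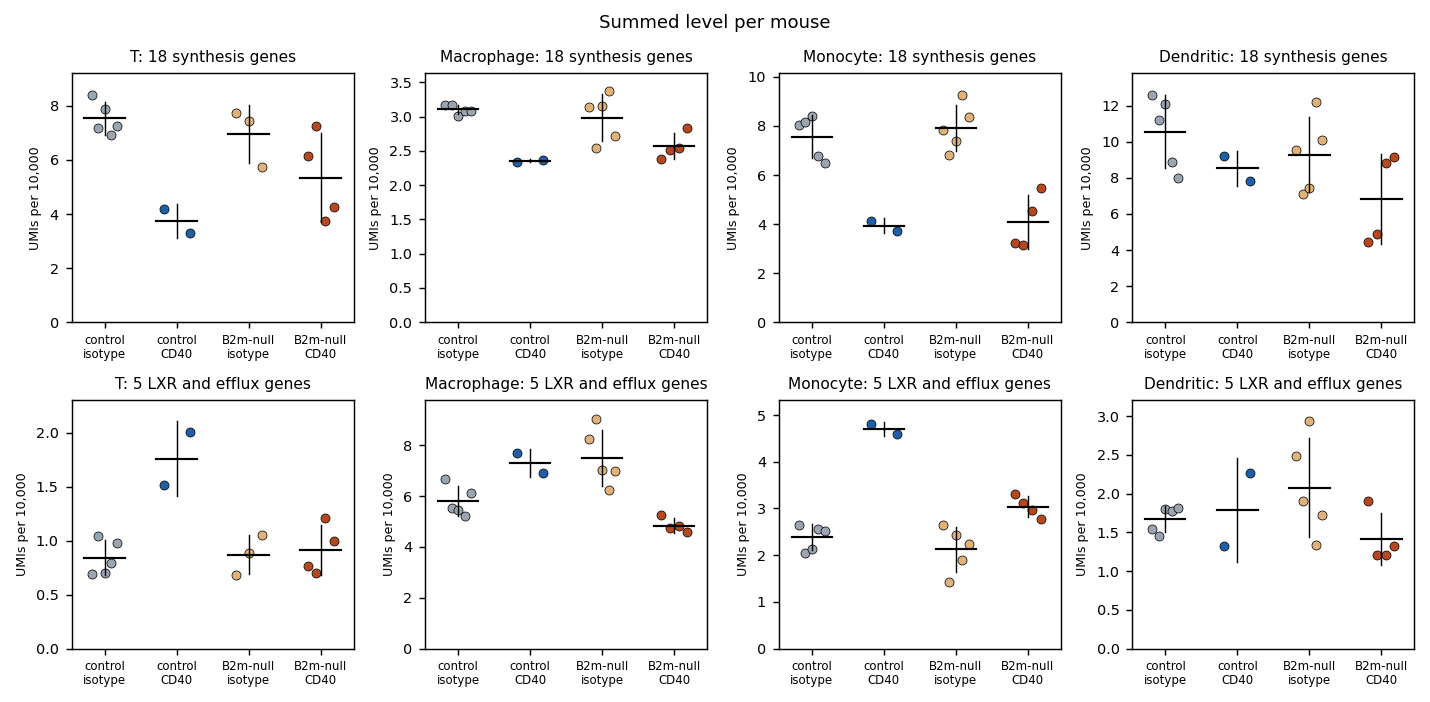
Summed levels per mouse in UMIs per 10000 (vertical axes) of the 18 synthesis genes (top) and the 5 LXR and efflux genes (bottom) in the 4 cell sets. Points are mice by group, horizontal bars are means and vertical lines are 1 SD. The synthesis sums of both control CD40 mice lie below all 5 control isotype mice in T cells, macrophages and monocytes, while in dendritic cells 1 of them lies inside that range and 1 just below it.

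Anti-CD40 against isotype was then tested gene by gene with edgeR across all genes of a set, and a member counts as called at an adjusted p under 0.05. Changes are log2 changes, given with ± their standard error, and those between genotypes are B2m-null against control. In control tumours 14 of the 27 monocyte members that passed the count filter were called (51.9%), against 16.7% of all 8948 genes tested. Of these 11 fell (40.7%), against 7.20% of all genes, and 3 rose, against 9.50%. T cells gave 14 calls of 29 (48.3%, against 34.9% of 10493 genes), with 11 lower (37.9%, against 18.2%) and 3 higher (against 16.7%). Macrophages gave 9 of 29 (31.0%), close to the 27.6% of 11708 genes called there. In dendritic cells edgeR called 0 of 28 members, with 3 at an unadjusted p under 0.05, against 4.11% of 8838 genes called, and DESeq2 and limma-voom also called 0, each with 3 at an unadjusted p under 0.05.

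Monocytes of B2m-null tumours had 13 of 27 members called (48.1%), against 35.2% of all genes, and again 11 fell (40.7%), against 17.3%. Macrophages had 10 of 29 (34.5%, against 31.2%) and T cells 4 of 29 (13.8%, against 13.6%), both near the share of all genes. Dendritic cells had 5 of 28 (17.9%, against 11.8%). The median log2 change of the tested synthesis genes was -0.62 and -0.82 in monocytes of control and B2m-null tumours, -0.79 and -0.20 in T cells, -0.28 and -0.08 in macrophages, and -0.19 and -0.43 in dendritic cells. The median over all genes lay between -0.015 and 0.002 in each of these comparisons. The p-values measure the spread between mice, and mice of a pool share a lane. The changes are per UMI counted, so a gain or loss of cells of 1 kind within a set and a change in each cell cannot be told apart from them.

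Many calls in control tumours were lost without single mice or without the cells that carried 2 or more cycling UMIs. Without control CD40 mouse 2, 2 of the 14 T cell calls and 3 of the 14 monocyte calls were kept, and without control isotype replicate 1, 5 and 4 were kept. Without control CD40 mouse 1, 3 of the 9 macrophage calls and 7 of the 14 monocyte calls were kept. Leaving out either of these CD40 mice leaves 1 in the group, and the fit then takes its spread to be that of the other groups. With the cells that carried 2 or more cycling UMIs left out, T cells had 4 of 24 members called and macrophages 4 of 28, against 19.2% and 20.2% of all genes in those fits. Such cells made up 33.0% of T cells and 33.7% of macrophages in control isotype mice against 12.2% and 10.2% in control CD40 mice, and all 10 cycling genes fell in both sets. In monocytes cycling genes rose, 5 of 10 in control and all 10 in B2m-null tumours. Of the 8948 genes tested there, 850 and 1602 rose. Monocytes with 2 or more cycling UMIs made up 2.55% under isotype and 4.4% under CD40 in control tumours. In B2m-null tumours they made up 2.37% and 11.23%. Monocytes were also fitted with these cells left out. Hmgcs1, Idi1, Sqle, Cyp51, Insig1 and Stard4 kept their fall in B2m-null monocytes in that fit. The monocyte counts of called members are not among those listed in the closing section as moved by it. Over all sets and comparisons, 74 of the 100 member calls with a value in that fit were kept and 26 were lost. In the B2m-null groups the shares of cells with 2 or more cycling UMIs were 28.3% and 24.2% for T cells and 43.6% and 27.7% for macrophages. The threshold of 2 UMIs was not scaled to depth, so deeper cells reach it more easily. The part of depth in these shares was not tested. The composition of the sets moved too. The T cell clusters 1 and 6, led by Ccl5, Gzmk and CD8 genes, held 3.32% and 9.11% of T cells in control isotype mice and 37.9% and 38.2% in control CD40 mice. In B2m-null tumours cluster 1 went from 10.1% to 50.6% and cluster 6 from 5.83% to 10.1%, while cluster 15, led by Tcf7, went from 37.4% to 4.1% (31.8% to 4.32% in control tumours). Macrophage cluster 7, led by H2-M2, went from 6.05% to 51.7% in control and from 1.86% to 11.4% in B2m-null tumours, so the CD40 groups of the 2 genotypes differed in it too. Macrophage cluster 4, led by Fcrls and Stab1, went from 30.7% to 5.26% and from 40.04% to 17.5% in the same order. In dendritic cells of control tumours clusters 14, 16 and 17 went from 36.02%, 34.33% and 29.65% to 48.45%, 19.77% and 31.78%. In those of B2m-null tumours they went from 42.0%, 34.35% and 23.66% to 51.76%, 27.16% and 21.09%. Depth moved with treatment as well. The median UMIs per cell went from 4304.5 to 2354 in control macrophages, with 345 of 5902 and 1371 of 7522 cells under 1000 UMIs, and from 1646 to 1243 in control T cells. In B2m-null tumours they went from 6584 to 5214 in macrophages, from 1959 to 2243 in T cells and from 2971 to 3998 in monocytes, against 2131 and 2275 in control monocytes. How much of each result these shifts make up was not tested beyond the values given beside it. With the lane as the unit, 54 of the 105 calls of members over all comparisons were lost. With cells thinned to 1000 UMIs 57 were kept, 37 were lost and 11 had no value because the gene missed the count filter. Under per-cell marker gates 62 were kept, 42 were lost and 1 reversed. The losses named beside a gene are mostly those under other settings.

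For the 18 synthesis genes the control groups overlapped within some T cell clusters, while over the whole set the sums were 8.42, 7.19, 7.87, 6.93 and 7.25 in control isotype and 4.19 and 3.29 in control CD40 mice. In cluster 6, which held 38.2% of control CD40 T cells, they summed to 2.87, 4.38, 4.32, 2.72 and 2.66 under isotype, from 93 UMIs in all, and to 3.13 and 2.85 under CD40, and the groups overlapped. They overlapped in cluster 15 too, at 2.62, 2.73, 2.66, 1.73 and 2.43 and 2.16 and 2.76. In cluster 10, led by Gzmf, the sums were 9.57, 9.47, 9.14, 8.05 and 9.03 under isotype and 5.89 and 4.82 under CD40. In cluster 13, led by Tnfrsf4, Cd4 and Foxp3, they were 8.29, 7.63, 8.29, 6.72 and 8.29 and 4.35 and 3.69, and in clusters 10 and 13 both CD40 mice lay below all isotype mice. In cluster 1, 2 control isotype mice had enough cells, at 4.06 and 4.67 from 62 UMIs, against 2.90 and 3.16 under CD40. These cluster values are given without a test, and the T cell calls are those of the whole set.

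**Figure D2:**
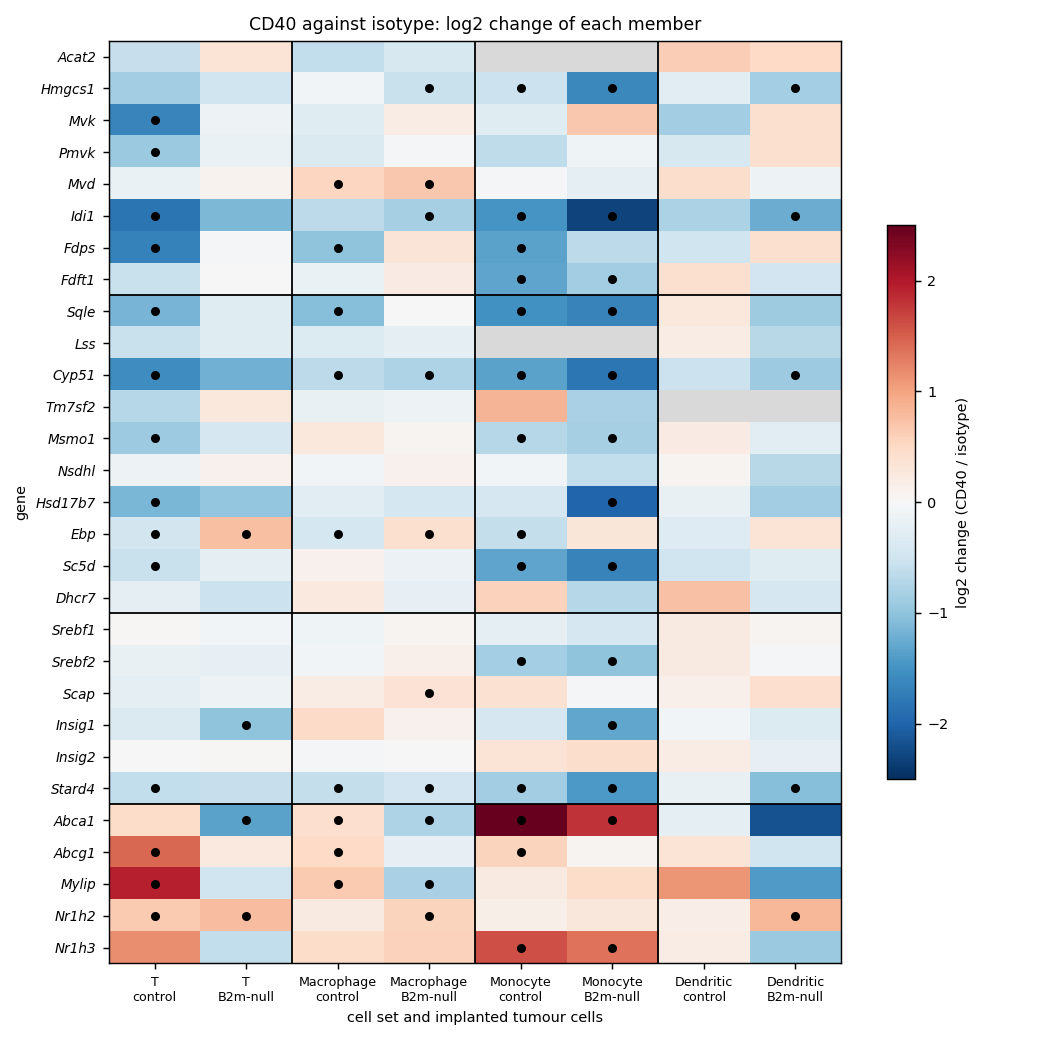
Log2 change between anti-CD40 and isotype (colour) for the 29 members (rows, in the order of the roles, with lines between them) in each cell set and tumour genotype (columns). Black dots mark members at an edgeR adjusted p under 0.05 and grey fields those under the count filter. The monocyte columns are mostly blue above the last line and red for Abca1 and Nr1h3 below it.

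Of the mevalonate and squalene genes, 4 of 7 tested fell in monocytes of control tumours and 3 of 7 in those of B2m-null tumours, with median log2 changes of -0.64 and -0.66. Of all genes, 7.20% and 17.3% fell in these comparisons. In T cells of control tumours 4 of 8 fell (median -0.89), against 18.2% of all genes, and in those of B2m-null tumours 0 of 8 were called by edgeR, against 13.6%. Hmgcs1 makes HMG-CoA, the substrate of the enzyme that sets the rate of the pathway. In monocytes of control tumours Hmgcs1 measured 1.10, 0.798, 0.888, 0.666 and 0.772 UMIs per 10000 under isotype and 0.597 and 0.497 under CD40. In B2m-null tumours it measured 0.660, 0.851, 1.17, 1.08 and 0.916 under isotype and 0.267, 0.247, 0.314 and 0.293 under CD40. The groups did not overlap in either genotype. Hmgcs1 fell in B2m-null tumours (-1.61 ± 0.17, adjusted p = 5.73e-09) and in control tumours (-0.54 ± 0.19, adjusted p = 0.0403), and the 2 effects differed (-1.06 ± 0.25, adjusted p = 0.00621). This difference lost its call without control CD40 replicate 2, a technical lane of that pool. Between the CD40 groups the B2m-null mice were lower (-0.89 ± 0.20, adjusted p = 0.00472). The call in control tumours was lost with DESeq2, with limma-voom and in the classical monocyte cluster alone, where the change was -0.08 (adjusted p = 0.886).

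Idi1 interconverts the C5 isoprenoid units from which all later intermediates are built. Its monocyte levels were 0.757, 0.930, 0.940, 0.685 and 0.579 in control isotype and 0.191 and 0.288 in control CD40 mice. They were 1.67, 0.567, 1.02, 1.04 and 0.974 in B2m-null isotype and 0.167, 0.105, 0.214 and 0.318 in B2m-null CD40 mice. Every CD40 mouse lay below every isotype mouse of its genotype. Idi1 fell in control (-1.48 ± 0.35, adjusted p = 0.00782) and in B2m-null tumours (-2.31 ± 0.29, adjusted p = 1.41e-05), the latter the largest called fall of any member between CD40 and isotype in these 4 sets. T cells of control tumours showed 1.5, 1.18, 1.16, 1.02 and 0.964 under isotype against 0.395 and 0.259 under CD40, without overlap (-1.82 ± 0.49, adjusted p = 0.0136). With cycling cells left out that T cell change was -0.95 (adjusted p = 0.176). Macrophages of B2m-null tumours had Idi1 at 0.208, 0.255, 0.257, 0.272 and 0.129 under isotype and 0.120, 0.127, 0.0791 and 0.102 under CD40, again without overlap (-0.83 ± 0.21, adjusted p = 0.00666).

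Fdps joins the C5 units into farnesyl diphosphate, the branch point to sterols, dolichol and prenylated proteins. The 5 control isotype mice had 0.883, 0.605, 0.742, 0.613 and 0.682 in T cells and the 2 control CD40 mice 0.262 and 0.178, and Fdps fell (-1.68 ± 0.32, adjusted p = 0.00125). In macrophages the same groups had 0.299, 0.271, 0.279, 0.243 and 0.260 and 0.102 and 0.134 (-1.01 ± 0.21, adjusted p = 0.00151). Monocyte Fdps went from 1.12, 1.23, 1.11, 1.02 and 0.880 to 0.382 and 0.40 (-1.33 ± 0.42, adjusted p = 0.0474). No control CD40 mouse reached the lowest isotype mouse in these 3 sets, but the monocyte call was lost with RLE scaling, without a count filter, with limma-voom and in 17 of the fits that left out a mouse or a lane. In B2m-null tumours the T cell values were 0.628, 0.656 and 0.495 under isotype and 0.611, 0.893, 0.307 and 0.423 under CD40, and the macrophage values 0.195, 0.204, 0.226, 0.268 and 0.198 and 0.151, 0.212, 0.247 and 0.307. Those groups overlapped and Fdps was not called in them, and the CD40 effect differed between the genotypes in T cells (1.65 ± 0.45, adjusted p = 0.0272) and in macrophages (1.34 ± 0.27, adjusted p = 0.00415). Under CD40 the level was higher in B2m-null than in control tumours in T cells (1.37 ± 0.33, adjusted p = 0.0123) and in macrophages (1.0 ± 0.21, adjusted p = 0.00544).

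The other members of the early steps were called in fewer sets. Mvk phosphorylates mevalonate. In T cells it measured 0.132, 0.110, 0.118, 0.0889 and 0.0846 in control isotype and 0.0437 and 0.0267 in control CD40 mice, and it fell (-1.65 ± 0.31, adjusted p = 0.000544). B2m-null T cells had 0.157, 0.107 and 0.0582 and 0.122, 0.0882, 0.0612 and 0.0891, which overlapped, and the effects differed (1.51 ± 0.45, adjusted p = 0.0315). Under CD40, Mvk was higher in B2m-null than in control tumours (1.36 ± 0.31, adjusted p = 0.00688). Pmvk adds the next phosphate. It fell in control T cells from 0.509, 0.532, 0.499, 0.477 and 0.434 to 0.294 and 0.214 (-0.92 ± 0.16, adjusted p = 0.000283). B2m-null T cells held 0.471, 0.411 and 0.393 under isotype and 0.339, 0.415, 0.293 and 0.305 under CD40, and the effects differed (0.77 ± 0.23, adjusted p = 0.0369), a call that was lost with DESeq2 and limma-voom. Fdft1, squalene synthase, commits farnesyl units to sterols. Its monocyte level was 0.216, 0.215, 0.302, 0.235 and 0.107 against 0.0836 and 0.0756 in control tumours (-1.32 ± 0.41, adjusted p = 0.0294) and 0.484, 0.283, 0.146, 0.288 and 0.162 against 0.0946, 0.0921, 0.118 and 0.212 in B2m-null tumours (-0.86 ± 0.31, adjusted p = 0.0327), where the groups overlapped. DESeq2 called neither of the 2 Fdft1 changes.

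Mvd went the other way in macrophages. Mvd decarboxylates the mevalonate diphosphate to the first C5 unit. It measured 0.102, 0.113, 0.107, 0.0965 and 0.114 in control isotype and 0.142 and 0.139 in control CD40 macrophages and rose (0.53 ± 0.19, adjusted p = 0.046). In B2m-null macrophages it measured 0.105, 0.0765, 0.0531, 0.129 and 0.0849 and 0.111, 0.125, 0.123 and 0.167 and rose (0.67 ± 0.17, adjusted p = 0.00709). The control groups did not overlap and the B2m-null groups did. In control tumours the Mvd call was lost with DESeq2 and with cycling cells left out. Acat2, which makes acetoacetyl-CoA, passed the count filter in 3 sets and was not called in any comparison there. Its log2 changes between CD40 and isotype ran from -0.61 to 0.62, with 0.0987 as the smallest adjusted p. In dendritic cells 2 of the 8 genes were called, both lower in B2m-null tumours, where 5.06% of all genes fell. Dendritic Hmgcs1 measured 1.41, 1.30, 1.42, 1.57 and 1.44 under isotype and 0.750, 0.842, 0.635 and 0.80 under CD40, and Idi1 1.58, 1.17, 1.27, 1.76 and 1.34 and 0.375, 0.368, 0.635 and 0.690, with no overlap for either. Both fell, Hmgcs1 (-0.85 ± 0.16, adjusted p = 0.00156) and Idi1 (-1.24 ± 0.27, adjusted p = 0.00801). Macrophage Hmgcs1 in B2m-null tumours went from 0.452, 0.510, 0.548, 0.532 and 0.367 to 0.308, 0.270, 0.235 and 0.302, also without overlap (-0.55 ± 0.14, adjusted p = 0.00652).

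**Figure D3:**
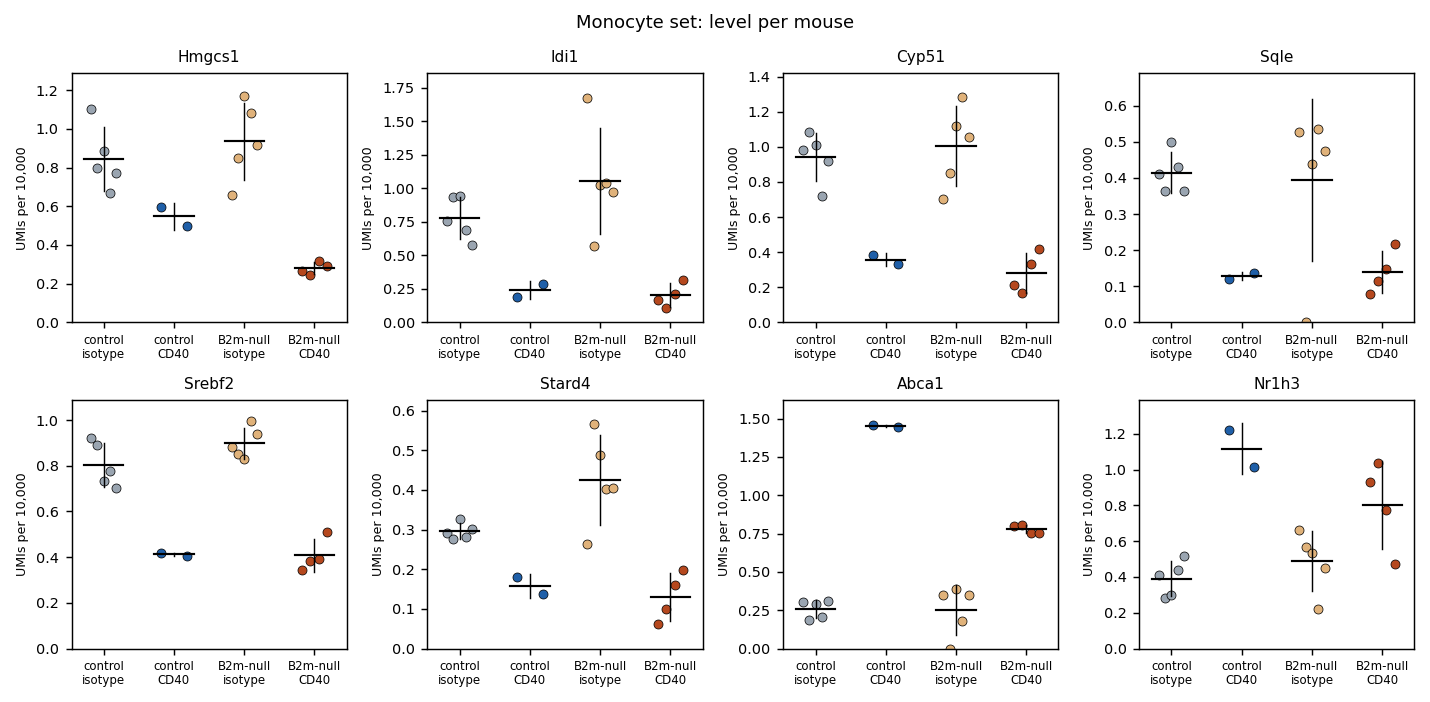
Levels per mouse in monocytes, in UMIs per 10000 (vertical axes), of 8 members in the 4 groups. Points are mice, horizontal bars means and vertical lines 1 SD. The 4 synthesis genes, Srebf2 and Stard4 have lower means and Abca1 higher means in both CD40 groups, and the B2m-null isotype mouse at 0 for Sqle and Abca1 is the one with 27 monocytes.

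Of the 10 sterol step genes, 6 fell in T cells of control tumours (median log2 change -0.64), 5 of 9 tested in monocytes of control (-0.60) and B2m-null tumours (-0.83), and 3 in macrophages of control tumours (-0.23). The shares of all genes that fell there were 18.2% in T cells, 7.20% and 17.3% in monocytes and 13.8% in macrophages. Sqle, squalene epoxidase, is the second control point of the pathway. In control tumours it went from 0.411, 0.363, 0.50, 0.432 and 0.365 to 0.119 and 0.137 in monocytes (-1.51 ± 0.28, adjusted p = 0.000238). Macrophages of the same mice went from 0.142, 0.139, 0.156, 0.167 and 0.134 to 0.0664 and 0.0635 (-1.07 ± 0.21, adjusted p = 0.000745). T cells went from 0.448, 0.412, 0.458, 0.412 and 0.412 to 0.248 and 0.139 (-1.15 ± 0.30, adjusted p = 0.00733). In each of these 3 sets both CD40 mice lay below all isotype mice. In B2m-null tumours the monocyte values were 0.528, 0, 0.438, 0.536 and 0.475 and 0.0779, 0.114, 0.146 and 0.216 (-1.67 ± 0.22, adjusted p = 7.84e-07), and the isotype mouse at 0, with 27 cells, made the groups overlap. B2m-null macrophages had 0.169, 0.0255, 0.133, 0.186 and 0.133 and 0.114, 0.147, 0.130 and 0.131 with no call. The CD40 effects in macrophages differed (1.07 ± 0.26, adjusted p = 0.0117), and the B2m-null CD40 level was higher than the control CD40 level (1.04 ± 0.21, adjusted p = 0.00389).

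Cyp51, which removes a methyl group from lanosterol, was called in all 4 sets. Monocyte Cyp51 measured 0.985, 1.08, 1.01, 0.723 and 0.922 in control isotype and 0.382 and 0.331 in control CD40 mice (-1.33 ± 0.29, adjusted p = 0.00374). It measured 0.704, 0.851, 1.12, 1.28 and 1.05 in B2m-null isotype and 0.211, 0.166, 0.332 and 0.418 in B2m-null CD40 mice (-1.81 ± 0.24, adjusted p = 1.24e-05). The groups were apart in both genotypes. T cells of control tumours went from 0.964, 0.642, 0.853, 0.734 and 0.835 to 0.324 and 0.221 (-1.56 ± 0.41, adjusted p = 0.0108). Macrophages went from 0.162, 0.179, 0.118, 0.146 and 0.143 to 0.0694 and 0.0941 in control (-0.65 ± 0.24, adjusted p = 0.0461) and from 0.176, 0.153, 0.226, 0.216 and 0.126 to 0.0862, 0.0525, 0.0928 and 0.109 in B2m-null tumours (-0.77 ± 0.20, adjusted p = 0.00782). Dendritic cells of B2m-null tumours went from 1.25, 0.669, 0.814, 1.26 and 0.913 to 0.531, 0.316, 0.609 and 0.439 (-0.91 ± 0.28, adjusted p = 0.0444). None of these 4 pairs of groups overlapped. The control macrophage call and the dendritic call were lost with limma-voom, and the T cell call with cycling cells left out.

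Ebp, an isomerase of the late sterol steps, moved in opposite directions in the 2 genotypes in T cells and macrophages. In control tumours it fell in T cells, from 0.693, 0.834, 0.659, 0.580 and 0.874 to 0.526 and 0.492 (-0.46 ± 0.16, adjusted p = 0.0339). It fell in macrophages from 0.592, 0.607, 0.708, 0.618 and 0.721 to 0.427 and 0.445 (-0.45 ± 0.13, adjusted p = 0.0165) and in monocytes from 0.833, 0.886, 0.819, 0.788 and 0.930 to 0.561 and 0.50 (-0.60 ± 0.19, adjusted p = 0.0295). In all 3 sets the control groups were apart. In B2m-null tumours Ebp rose in T cells, from 0.471, 0.662 and 0.626 to 0.733, 0.937, 1.01 and 1.02 (0.75 ± 0.17, adjusted p = 0.00747), with no overlap. It rose in macrophages from 0.568, 0.433, 0.469, 0.545 and 0.637 to 0.554, 0.597, 0.653 and 0.687, with overlap (0.40 ± 0.11, adjusted p = 0.0091), and in monocytes it measured 0.396, 0.567, 0.585, 0.776 and 0.962 and 0.629, 0.772, 0.971 and 0.880 without a call. The CD40 effect differed between the genotypes in T cells (1.21 ± 0.24, adjusted p = 0.0031), macrophages (0.85 ± 0.17, adjusted p = 0.00415) and monocytes (0.91 ± 0.25, adjusted p = 0.0213). Between the CD40 groups Ebp was higher in B2m-null tumours in T cells (0.96 ± 0.17, adjusted p = 0.00118), macrophages (0.55 ± 0.14, adjusted p = 0.0122) and monocytes (0.69 ± 0.19, adjusted p = 0.0229). The monocyte difference was lost with DESeq2, and the fall in control T cells with limma-voom. The difference of the CD40 effects in monocytes was lost without control CD40 replicate 2, a technical lane. Of the 2 such monocyte differences, Hmgcs1 and Ebp, 1 lost its call in each of several other fits. Among these were the fits without B2m-null CD40 replicate 2, without either B2m-null isotype replicate and without control isotype replicate 1.

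Msmo1, Sc5d and Hsd17b7 fell in T cells and monocytes. Msmo1, a methyl sterol oxidase, measured 0.833, 0.776, 0.828, 0.554 and 0.551 against 0.525 and 0.335 in control monocytes (-0.71 ± 0.22, adjusted p = 0.0205). In B2m-null monocytes it measured 0.792, 1.42, 0.585, 0.898 and 0.846 against 0.434, 0.319, 0.403 and 0.524 (-0.83 ± 0.18, adjusted p = 0.000445). Control T cells went from 0.516, 0.339, 0.347, 0.388 and 0.434 to 0.230 and 0.202 (-0.90 ± 0.24, adjusted p = 0.00896). None of the 3 pairs overlapped. Sc5d, a desaturase, measured 0.281, 0.226, 0.380, 0.216 and 0.257 against 0.0955 and 0.101 in control monocytes (-1.31 ± 0.39, adjusted p = 0.0205) and 0.220, 1.13, 0.244, 0.337 and 0.325 against 0.0223, 0.0848, 0.0893 and 0.159 in B2m-null monocytes (-1.66 ± 0.31, adjusted p = 0.000241). In control T cells Sc5d went from 0.401, 0.357, 0.430, 0.444 and 0.40 to 0.274 and 0.264 (-0.56 ± 0.15, adjusted p = 0.00749), and these 3 pairs did not overlap either. Hsd17b7, a keto reductase, went from 0.173, 0.165, 0.305, 0.164 and 0.209 to 0.105 and 0.0748 in control T cells (-1.15 ± 0.33, adjusted p = 0.0128) and from 0.0880, 0.283, 0.146, 0.159 and 0.151 to 0.0111, 0.0276, 0.0250 and 0.0722 in B2m-null monocytes (-1.98 ± 0.37, adjusted p = 0.000104), apart in both. Dhcr7, a reductase of the last sterol steps, was called only between the CD40 groups, where monocytes measured 0.167 and 0.162 in control and 0.0835, 0.0590, 0.0643 and 0.0433 in B2m-null tumours (-1.36 ± 0.33, adjusted p = 0.0109). Lss, Tm7sf2 and Nsdhl, which act between squalene epoxide and the last sterols, were not called in any comparison of the sets where they were tested. Their log2 changes between CD40 and isotype ran from -0.70 to 0.19 for Lss, from -0.81 to 0.84 for Tm7sf2 and from -0.70 to 0.11 for Nsdhl, with smallest adjusted p-values of 0.199, 0.167 and 0.0629.

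Of the 6 sterol sensing and transport genes, 2 fell in monocytes of control tumours, Srebf2 and Stard4, and 3 in those of B2m-null tumours, where Insig1 joined them (median log2 changes -0.34 and -0.71), and 7.20% and 17.3% of all genes fell there. Srebf2 encodes SREBP2, the main activator of the synthesis genes, and is one of its own targets. It measured 0.920, 0.892, 0.733, 0.779 and 0.701 in control isotype and 0.418 and 0.407 in control CD40 monocytes (-0.86 ± 0.18, adjusted p = 0.000847). In B2m-null tumours it measured 0.880, 0.851, 0.828, 0.996 and 0.939 and 0.345, 0.385, 0.393 and 0.510 (-1.0 ± 0.15, adjusted p = 3.52e-06). Both pairs were apart, and Srebf2 was called in no other set. Insig1, which retains the SREBP complex, fell in B2m-null monocytes from 0.880, 0.283, 1.12, 0.804 and 0.684 to 0.306, 0.208, 0.314 and 0.337 (-1.30 ± 0.21, adjusted p = 2.26e-05). The 27-cell isotype mouse lay inside the CD40 range. In B2m-null T cells Insig1 fell from 0.785, 0.358 and 0.306 to 0.231, 0.228, 0.161 and 0.127, without overlap (-1.01 ± 0.25, adjusted p = 0.0125). Control CD40 mice had 0.776 and 0.465 in monocytes and 0.347 and 0.304 in T cells, above all B2m-null CD40 mice, and the difference was called in monocytes (-0.98 ± 0.23, adjusted p = 0.011) and in T cells (-0.83 ± 0.23, adjusted p = 0.0189). Scap, the escort of SREBP, rose in B2m-null macrophages from 0.0947, 0.0510, 0.102, 0.0814 and 0.0961 to 0.0923, 0.105, 0.10 and 0.102 (0.35 ± 0.13, adjusted p = 0.0421), with overlapping groups and no call from DESeq2. Srebf1, which encodes SREBP1, and Insig2 were not called in any set or comparison, with smallest adjusted p-values between CD40 and isotype of 0.0874 and 0.0914.

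Stard4 carries sterol between membranes inside the cell. Monocytes of control tumours went from 0.292, 0.275, 0.328, 0.282 and 0.30 to 0.179 and 0.137 (-0.86 ± 0.28, adjusted p = 0.0304) and those of B2m-null tumours from 0.264, 0.567, 0.487, 0.402 and 0.406 to 0.0612, 0.0995, 0.161 and 0.197 (-1.44 ± 0.23, adjusted p = 1.08e-05). Macrophages went from 0.122, 0.116, 0.106, 0.129 and 0.112 to 0.0635 and 0.0754 in control tumours (-0.59 ± 0.16, adjusted p = 0.00895) and from 0.140, 0.0765, 0.133, 0.134 and 0.112 to 0.0800, 0.0674, 0.0772 and 0.0833 in B2m-null tumours (-0.48 ± 0.14, adjusted p = 0.0122). Only the last of these 4 pairs overlapped, through the B2m-null isotype mouse at 0.0765. T cells of control tumours measured 0.665, 0.550, 0.645, 0.734 and 0.558 and 0.468 and 0.341 (-0.62 ± 0.18, adjusted p = 0.0114), and dendritic cells of B2m-null tumours 0.317, 0.234, 0.232, 0.407 and 0.313 and 0.0313, 0.105, 0.172 and 0.188 (-1.06 ± 0.32, adjusted p = 0.0309), both apart. Stard4 was thus called lower in 6 of the 8 combinations of set and genotype. The calls in control monocytes and in dendritic cells were lost with limma-voom.

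Of the 5 LXR and efflux genes, 3 rose in T cells, macrophages and monocytes of control tumours, with median log2 changes of 1.17, 0.45 and 0.56. Of all genes, 16.7%, 13.8% and 9.50% rose in these comparisons. In B2m-null tumours the medians were -0.50, -0.21 and 0.46, and in dendritic cells 0.18 in control and -0.93 in B2m-null tumours. Over the whole sets, the largest called rise of a member between CD40 and isotype was that of the exporter Abca1 in monocytes. ABCA1 loads cholesterol onto lipid-poor apolipoprotein. Monocyte Abca1 measured 0.303, 0.187, 0.293, 0.206 and 0.307 in control isotype and 1.46 and 1.45 in control CD40 mice. In B2m-null tumours it measured 0.352, 0, 0.390, 0.179 and 0.348 under isotype and 0.801, 0.805, 0.753 and 0.755 under CD40. All 6 CD40 mice lay above all 10 isotype mice. Abca1 rose in control (2.61 ± 0.18, adjusted p = 6.86e-12) and in B2m-null tumours (1.80 ± 0.20, adjusted p = 2.35e-08), and between the CD40 groups the B2m-null mice were lower (-0.84 ± 0.17, adjusted p = 0.0021). The difference of the 2 effects was not called (-0.81 ± 0.29, adjusted p = 0.0739). Markers of macrophages moved with Abca1 in this set: of 10 macrophage markers 7 rose and 1 fell in control and 6 rose and 2 fell in B2m-null tumours, none was at 0, and they summed to 28.1 to 35.3 UMIs per 10000 in control isotype, 35.3 to 54.8 in control CD40, 25.3 to 38.0 in B2m-null isotype mice, with 39.8 to 57.0 in the CD40 mice of that genotype. Of 11 monocyte markers 7 fell in each genotype. Their part in the result was not tested.

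The monocyte set held 2 clusters, and their shares moved with treatment. Cluster 0, led by Chil3 and Vcan as in classical monocytes, held 95.5% of the set in control isotype, 55.7% in control CD40, 98.1% in B2m-null isotype mice, with 23.7% in their CD40 group. The rest was cluster 12, led by Ly6i, Fpr2, Upp1 and Nos2. Within the Nos2-led cluster Abca1 measured 0.440, 0.903, 1.33 and 0.306 in the 4 control isotype mice with enough cells, 2.41 and 1.77 in control CD40 and 0.930, 0.846, 0.952 and 0.952 in B2m-null CD40 mice. Within the classical cluster it measured 0.288, 0.160, 0.221, 0.196 and 0.287 in control isotype and 0.521 and 0.616 in control CD40 mice, a log2 change of 1.38 (adjusted p = 0.000774). In the classical cluster of B2m-null tumours it measured 0.271, 0, 0.390, 0.169 and 0.321 under isotype and 0.216, 0.244, 0.145 and 0.0848 under CD40, and the change of -0.42 (adjusted p = 0.472) had the opposite sign to the change over both clusters. Under a per-cell gate on marker genes in place of clusters the B2m-null change was -1.24 (adjusted p = 0.00334), and 68.8% of the monocytes of that gate were in the monocyte clusters. In control tumours the gate gave 0.55 (adjusted p = 0.372), and with it edgeR called 0 of 26 members in control monocytes (3 at an unadjusted p under 0.05), against 6.94% of all genes. In B2m-null monocytes 8 of 26 were called with the gate, all lower, against 18.7% of all genes called and 7.93% lower.

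Synthesis was lower in the Nos2-led than in the classical cluster in each of the 6 CD40 mice. In the classical cluster alone the 18 genes summed to 8.03, 8.18, 8.72, 7.15 and 6.60 in control isotype and 5.26 and 4.71 in control CD40 mice, and to 7.91, 6.80, 7.40, 9.32 and 8.51 and 4.13, 4.10, 6.65 and 7.23 in the B2m-null groups. In the Nos2-led cluster the sums were 7.91, 7.23, 3.98 and 3.17 in the 4 control isotype mice with enough cells, 3.01 and 3.33 in control CD40 and 3.01, 3.09, 3.85 and 4.93 in B2m-null CD40 mice. The control groups overlapped there, since 1 isotype mouse lay between the CD40 mice. Within the classical cluster the control groups did not overlap, the B2m-null CD40 mice of pool 1 lay below the isotype mice, and in pool 2 one lay just below the lowest isotype mouse and the other inside the range. In the classical cluster 5 of 25 members were called in control tumours, 3 of them lower, against 7.22% of all genes called and 3.12% lower. In B2m-null tumours 6 of 25 were called there, all lower, which were Hmgcs1, Idi1, Sqle, Cyp51, Insig1 and Stard4, against 14.1% called and 6.05% lower of all genes. These 6 kept their call in the B2m-null monocytes under every alternative run, leave-one-out fits included.

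**Figure D4:**
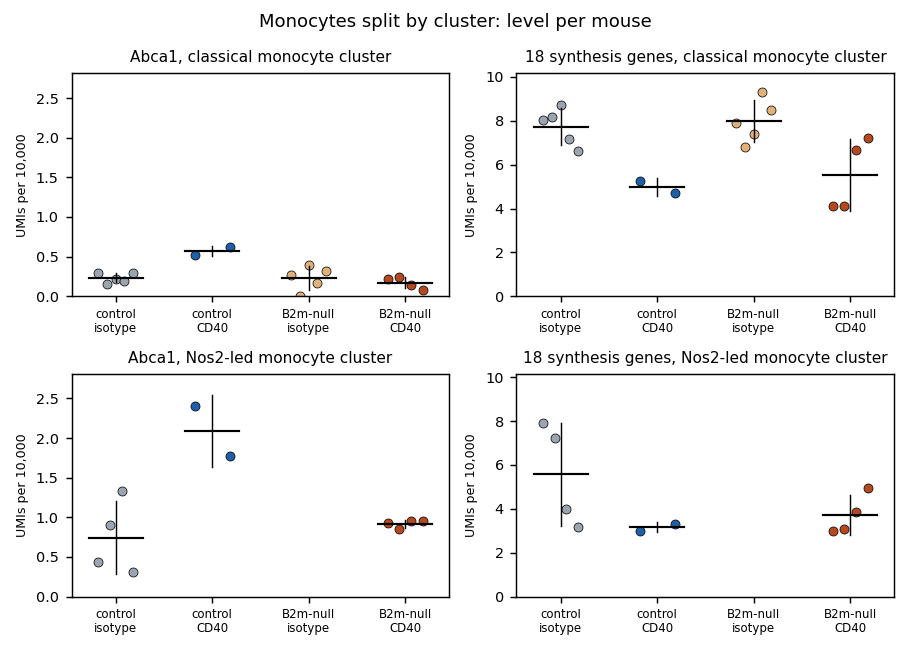
Levels per mouse in UMIs per 10000 (vertical axes) of Abca1 (left) and of the 18 synthesis genes summed (right) in the classical monocyte cluster (top) and the Nos2-led cluster (bottom). Points are mice with at least 20 cells of the cluster, bars are means and lines 1 SD. Abca1 is higher in the Nos2-led cluster than in the classical cluster in every CD40 mouse, and no B2m-null isotype mouse had enough cells of the Nos2-led cluster.

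In macrophages Abca1 rose under CD40 in control tumours and fell in B2m-null tumours. It measured 2.27, 2.18, 2.39, 2.15 and 2.77 in control isotype and 2.86 and 2.89 in control CD40 mice (0.42 ± 0.14, adjusted p = 0.0374). In B2m-null tumours it measured 4.66, 5.05, 3.5, 2.86 and 4.20 under isotype and 2.03, 1.84, 2.15 and 1.97 under CD40 (-0.77 ± 0.12, adjusted p = 0.000166). Neither pair overlapped, and the effects differed (-1.19 ± 0.19, adjusted p = 0.000657). Abca1 was also the 1 member of 29 (3.45%) called between the genotypes under isotype in macrophages, against 4.35% of all genes, and it was higher in B2m-null tumours (0.69 ± 0.11, adjusted p = 0.00327). That call was lost without B2m-null isotype replicate 1 and without control isotype replicate 1. Under CD40 it was lower in B2m-null tumours (-0.49 ± 0.15, adjusted p = 0.0335). The rise in control tumours was lost without either control CD40 mouse and with cycling cells left out, whereas the fall in B2m-null tumours and the difference between genotypes kept their calls under every alternative run.

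Within single macrophage clusters of control tumours the rise of Abca1 was not seen as a separation of the groups. Cluster 7 measured 3.75, 2.40, 3.05, 3.20 and 3.58 in control isotype and 2.98 and 3.03 in control CD40 mice, so the groups overlapped within the cluster that held 51.7% of control CD40 macrophages. Cluster 3, led by Cd209f and Lyve1, held 28.8% of them. It measured 2.40, 2.88, 3.133, 2.66 and 3.03 under isotype and 3.65 and 3.127 under CD40. The overlap there was narrow, as 1 CD40 mouse lay just below the highest isotype mouse and above the others. Cluster 2, led by Mmp12, measured 2.77, 3.08, 3.00, 2.68 and 3.88 under isotype and 2.49 and 3.18 under CD40. For cluster 4, led by Fcrls and Stab1, the values were 1.49, 1.64, 1.89, 1.74 and 2.18 under isotype and 1.197 and 1.79 under CD40. The control groups overlapped in each of these, and also in the small clusters 19 (0.905 to 2.17 and 1.73 to 2.19) and 24 (0.693 to 2.63 and 1.97 to 2.23). In B2m-null tumours cluster 2 measured 5.49, 3.41, 2.84 and 4.36 under isotype and 2.69, 2.09, 2.29 and 2.04 under CD40. Cluster 3 went from 3.75, 5.23, 3.13, 4.33 and 4.18 to 1.64, 1.04, 2.43 and 2.40. In cluster 4 the change was from 4.64, 3.81, 2.48 and 4.21 to 1.77, 1.56, 1.55 and 1.39, and in cluster 7 from 5.39 and 4.06 to 2.58, 2.52, 2.69 and 2.65. In these 4 clusters every B2m-null CD40 mouse lay below every B2m-null isotype mouse with enough cells. Cluster 19 ran from 2.121 to 2.47 under isotype and from 1.72 to 2.118 under CD40, just apart, and cluster 24 from 0.491 to 2.64 and from 0.836 to 0.843, with overlap. These cluster values are a description with no test.

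Mylip followed the same pattern in macrophages. MYLIP, also called IDOL, marks lipoprotein receptors for degradation. It measured 0.387, 0.343, 0.317, 0.326 and 0.373 in control isotype and 0.579 and 0.437 in control CD40 mice and rose (0.66 ± 0.13, adjusted p = 0.00117). In B2m-null tumours it measured 0.538, 0.433, 0.407, 0.337 and 0.412 and 0.206, 0.222, 0.219 and 0.181 and fell (-0.81 ± 0.12, adjusted p = 0.000113), and both pairs were apart. The effects differed (-1.47 ± 0.18, adjusted p = 5.65e-05), and under CD40 Mylip was lower in B2m-null tumours (-1.25 ± 0.14, adjusted p = 4.41e-05). The fall and both of these differences kept their call under every alternative run. Abcg1, which passes cholesterol to high-density lipoprotein, measured 2.74, 2.16, 1.90, 1.90 and 2.02 in control isotype and 3.18 and 2.39 in control CD40 macrophages, with overlap, and rose (0.50 ± 0.14, adjusted p = 0.0124). B2m-null macrophages measured 2.21, 2.37, 2.28, 2.2 and 1.67 and 1.72, 1.52, 1.54 and 1.5 without a call, the effects differed (-0.70 ± 0.18, adjusted p = 0.0155), and under CD40 the B2m-null level was lower (-0.79 ± 0.14, adjusted p = 0.00214). The rise of Abcg1 and Mylip in control macrophages was lost with cycling cells left out. Within cluster 7 Mylip measured 0.7623, 0.424, 0.2774, 0.376 and 0.2435 in control isotype and 0.7135 and 0.4295 in control CD40 mice. The control groups overlapped there for Mylip and for Abcg1. Mylip also overlapped in clusters 3 and 4 and was just apart in cluster 2. Abcg1 overlapped in clusters 2 and 4 and was apart in cluster 3. These cluster values are given without a test. Macrophage Nr1h2 measured 0.230, 0.229, 0.239, 0.298 and 0.282 and 0.259, 0.355, 0.366 and 0.350 in B2m-null tumours and rose (0.56 ± 0.13, adjusted p = 0.00271), with overlap.

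**Figure D5:**
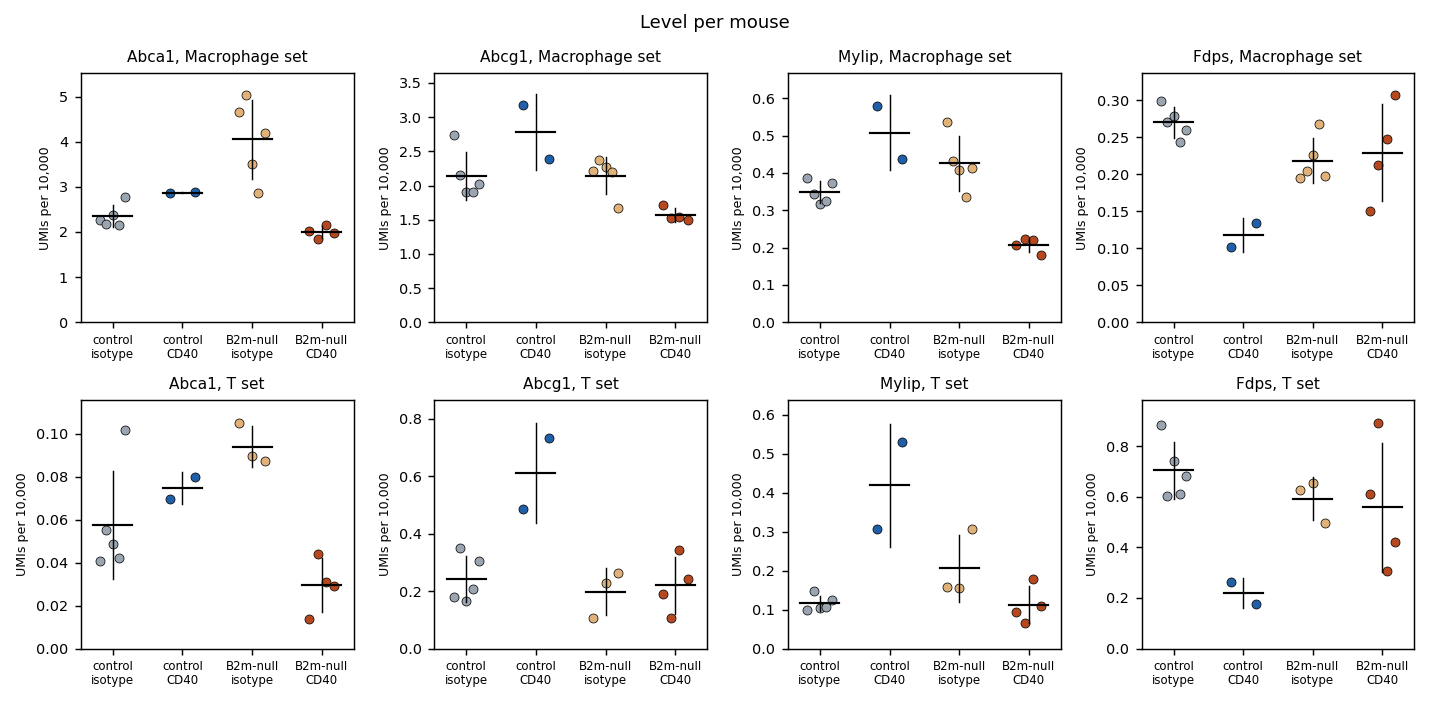
Levels per mouse in UMIs per 10000 (vertical axes) of Abca1, Abcg1, Mylip and Fdps in macrophages (top) and T cells (bottom). Points are mice by group, bars are means and lines 1 SD. Mylip is high in the control CD40 mice and low in the B2m-null CD40 mice in macrophages, and Fdps is low in the control CD40 mice in both sets.

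In T cells of control tumours Mylip, Abcg1 and Nr1h2 rose. T cell Mylip measured 0.0985, 0.147, 0.104, 0.108 and 0.124 in control isotype and 0.308 and 0.531 in control CD40 mice, and it rose (1.95 ± 0.29, adjusted p = 0.000111). This was the 1 T cell result that kept its call under every alternative run. In B2m-null tumours it measured 0.157, 0.155 and 0.306 and 0.0950, 0.0661, 0.178 and 0.109 with no call, and the effects differed (-2.45 ± 0.47, adjusted p = 0.00301). Abcg1 measured 0.18, 0.348, 0.167, 0.206 and 0.304 in control isotype and 0.486 and 0.733 in control CD40 T cells and rose (1.44 ± 0.32, adjusted p = 0.00367). Nr1h2, the LXR beta gene, measured 0.346, 0.477, 0.368, 0.407 and 0.434 and 0.621 and 0.607 in control (0.66 ± 0.19, adjusted p = 0.0106) and 0.105, 0.394 and 0.364 and 0.407, 0.459, 0.641 and 0.597 in B2m-null tumours (0.77 ± 0.22, adjusted p = 0.0224). None of the called pairs overlapped. Under CD40, Mylip and Abcg1 were lower in B2m-null than in control T cells (-1.71 ± 0.28, adjusted p = 0.00108 for Mylip and -1.29 ± 0.32, adjusted p = 0.0158 for Abcg1), where B2m-null mice had 0.190, 0.107, 0.344 and 0.241 for Abcg1.

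T cell Abca1 was scarce. It measured 0.0407, 0.0550, 0.0486, 0.0421 and 0.102 in control isotype, 0.0694 and 0.0800 in control CD40, 0.105, 0.0895 and 0.0874 in B2m-null mice under isotype and 0.0136, 0.0441, 0.0312 and 0.0290 in those under CD40, from 52, 143, 38 and 53 UMIs in all. It fell in B2m-null tumours (-1.33 ± 0.37, adjusted p = 0.0212), with no overlap, and was not called in control tumours (0.47 ± 0.30, adjusted p = 0.235). The effects differed (-1.80 ± 0.47, adjusted p = 0.0173), and under CD40 the B2m-null level was lower (-1.15 ± 0.31, adjusted p = 0.0167). The fall was lost in the CD8 T cell clusters alone and under the per-cell gates. The 10 macrophage markers summed to 2.49 to 3.51 UMIs per 10000 in B2m-null isotype T cells and 1.80 to 2.08 in B2m-null CD40 T cells, none was at 0, and 2 of the 9 tested, Mrc1 and Pf4, fell. In control tumours none of the 9 passed edgeR at an adjusted p under 0.05, and the sums were 1.58 to 2.5 and 1.75 to 2.18. Their part in the T cell values was not tested. In the CD8 T cell clusters alone, the control tumour changes were larger, at 3.28 for Mylip (adjusted p = 2.97e-06), 2.56 for Abcg1 (adjusted p = 9.91e-05) and 1.18 for Abca1 (adjusted p = 0.014). Those are clusters 1, 6 and 10, and their shares of T cells moved as well, with cluster 10 at 33.5% in control isotype and 11.6% in control CD40 mice. Within cluster 10 Mylip measured 0.0382, 0.0392, 0.0115, 0.0428 and 0.0219 under isotype and 0.129 and 0.235 under CD40, and the groups were apart. Abcg1 there was also apart, at 0.0573, 0.0784, 0.0230, 0.0927 and 0.0877 under isotype and 0.219 and 0.304 under CD40. Within cluster 6 Mylip measured 0.273, 0, 0.227, 0.627 and 0 under isotype, from 6 UMIs, and 0.427 and 0.731 under CD40. Abcg1 there measured 0.409, 0.843, 1.14, 0.627 and 0.190 under isotype, from 17 UMIs, and 0.699 and 0.930 under CD40, and both genes overlapped. Cluster 1 had 2 control isotype mice with enough cells, with 2 UMIs of Mylip and 5 of Abcg1 in all. In the other T cells, clusters 13 and 15, Mylip ran from 0.201 to 0.284 under isotype and from 0.357 to 0.358 under CD40, without overlap, and Abcg1 from 0.295 to 0.588 and from 0.564 to 0.606, with overlap. Mylip was apart within cluster 13 (0.119, 0.111, 0.0630, 0.0720 and 0.0495 against 0.202 and 0.288) and overlapped within cluster 15 (0.470, 0.493, 0.574, 0.432 and 0.499 against 0.690 and 0.559), and Abcg1 overlapped within both. The values by cluster and in the other T cells are given without a test. With cycling cells left out, Mylip rose by 1.015 (adjusted p = 0.00205), Abcg1 by 0.51 (adjusted p = 0.0404) and Fdps fell by 1.02 (adjusted p = 0.0122).

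Nr1h3 and Abcg1 also rose in monocytes of control tumours, and Nr1h3 in those of B2m-null tumours. Nr1h3, the LXR alpha gene, measured 0.411, 0.281, 0.302, 0.441 and 0.515 in control isotype and 1.22 and 1.01 in control CD40 mice (1.61 ± 0.29, adjusted p = 0.00113). B2m-null monocytes measured 0.660, 0.567, 0.536, 0.219 and 0.452 and 0.929, 1.04, 0.771 and 0.471 (1.36 ± 0.30, adjusted p = 0.00246), where 1 CD40 mouse lay inside the isotype range. Monocyte Abcg1 measured 1.28, 0.919, 0.940, 1.25 and 1.09 and 1.56 and 1.43 in control tumours and rose (0.56 ± 0.15, adjusted p = 0.00773). In the B2m-null CD40 mice it measured 0.957, 0.671, 0.807 and 0.909, lower than in control CD40 mice (-0.80 ± 0.15, adjusted p = 0.00129). In the classical cluster alone control Abcg1 lost its call (adjusted p = 0.0605), and in that of B2m-null tumours so did Nr1h3.

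Of the LXR and efflux genes in dendritic cells, 1 of 5 was called between CD40 and isotype in B2m-null tumours, where 6.77% of all genes rose and 5.06% fell, and none by edgeR in control tumours. In B2m-null tumours Nr1h2 measured 0.360, 0.535, 0.384, 0.441 and 0.460 under isotype and 0.875, 0.737, 0.542 and 0.769 under CD40 and rose (0.83 ± 0.16, adjusted p = 0.00203), without overlap. Mylip measured 0.101, 0.0824, 0.0753, 0.0878 and 0.0812 in control isotype, 0.0880 and 0.219 in control CD40, 0.109, 0.134, 0.163, 0.0722 and 0.124 in B2m-null mice under isotype and 0.0313, 0.0527, 0.0529 and 0.0157 in those under CD40, the last from 7 UMIs in all 4 mice. The CD40 effects on Mylip differed (-2.52 ± 0.62, adjusted p = 0.0179), as did the CD40 groups (-2.2 ± 0.57, adjusted p = 0.0444), and both calls were lost with limma-voom. The call between the CD40 groups was also lost on leaving out any single control isotype mouse. That of the effects was lost without B2m-null CD40 pool 2 mouse 2, without B2m-null CD40 replicate 2 and without control isotype replicate 1. It was also lost without control CD40 replicate 1, a technical lane, and without control CD40 mouse 2, which leaves that group 1 mouse. Dendritic Abca1 measured 0.863, 0.234, 1.05, 0.211 and 0.467 in B2m-null isotype and 0.25, 0.0527, 0.106 and 0.0471 in B2m-null CD40 mice, and its change was not called (-2.19 ± 0.81, adjusted p = 0.0995). Macrophage markers in these cells summed to 10.9 to 31.9 and 3.74 to 13.4 UMIs per 10000 in the same groups, with 2 of 9 tested markers lower and none at 0, and their part was not tested. Under the per-cell gates the dendritic set of control tumours gave 19 called members of 28, 15 lower and 4 higher, where 38.0% of all genes were called, 18.1% lower and 19.9% higher. Of the cells in that gate, 49.1% lay in dendritic clusters.

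Between the tumour genotypes under CD40, members were called in all 4 sets. There were 7 of 29 in T cells (24.1%, against 13.9% of all genes), 6 of 29 in macrophages (20.7%, against 14.0%), 6 of 27 in monocytes (22.2%, against 8.19%) and 1 of 28 in dendritic cells (3.57%, against 1.62%). Of the 5 LXR and efflux genes, 3 were lower in B2m-null tumours in T cells, 3 in macrophages, 2 in monocytes and 1 in dendritic cells, and none was higher. Of all genes 6.18%, 7.27%, 4.35% and 0.860% were lower in the same sets. Synthesis genes were called higher in B2m-null tumours 3 times in T cells and 3 times in macrophages, and in monocytes 1 was higher and 2 were lower, against 7.77%, 6.76% and 3.84% of all genes higher. The CD40 effect itself differed between genotypes for 6 of 29 members in T cells (20.7%, against 11.9%), 6 of 29 in macrophages (20.7%, against 15.7%), 2 of 27 in monocytes (7.41%, against 8.75%) and 1 of 28 in dendritic cells (3.57%, against 5.28%), so in the last 2 sets the share of members was below that of all genes. By direction, 4 were higher and 2 lower in T cells, against 7.43% and 4.51% of all genes, and 3 each in macrophages, against 8.24% and 7.46%. In monocytes 1 was higher and 1 lower, against 4.96% and 3.79%, and the 1 in dendritic cells was lower, against 2.26%. These comparisons share the 2 control CD40 mice. With the lane as the unit, which leaves that group 1 sample, there were 6 calls between the genotypes under CD40 in place of 20 and 5 differences in the CD40 effect in place of 15. All 7 T cell calls between the genotypes under CD40 were lost without control CD40 mouse 2, and 5 of the 6 T cell differences without B2m-null isotype replicate 2. Under isotype edgeR called 0 of 29 members in T cells, against 0.0953% of all genes, 0 of 27 in monocytes, against 1.89%, and 0 of 28 in dendritic cells, against 2.55%. The counts at an unadjusted p under 0.05 were 0, 3 and 3 with edgeR, 1, 0 and 3 with DESeq2 and 0, 2 and 4 with limma-voom, and both other tools also called 0 in each.

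The B2m-null CD40 pools differed from each other. In T cells the synthesis genes summed to 6.13 and 7.26 UMIs per 10000 in the mice of pool 1 and to 3.73 and 4.26 in those of pool 2. Dendritic cells showed the reverse, with 4.47 and 4.90 in pool 1 and 8.81 and 9.16 in pool 2, and monocytes had 3.21 and 3.16 against 4.54 and 5.46. Without B2m-null CD40 replicate 2, all 4 T cell calls between CD40 and isotype in B2m-null tumours were lost, and 3 of the 10 macrophage calls and 1 of the 5 dendritic calls were kept. Without B2m-null isotype replicate 1, 4 of the 10 macrophage calls were kept, and without B2m-null isotype replicate 2, 8 of the 13 monocyte calls. The 2 technical lanes of the control CD40 pool gave close sums for the same mouse, at 4.17 and 4.22 for T cells of mouse 1 and 3.27 and 3.34 for those of mouse 2, but 10.9 and 7.28 for dendritic cells of mouse 1.

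Other genes of lipid handling were taken from 3 lists. Of the SREBP targets in fatty acid synthesis, 3 of 8 tested fell in B2m-null monocytes, 5 of 10 in B2m-null macrophages, 2 of 10 in control macrophages and 2 of 8 in T cells of each genotype. Of all genes 17.3%, 15.5% and 13.8% fell in these 3 sets, and 18.2% and 5.48% in T cells of control and B2m-null tumours, so the 2 of 10 in control macrophages and the 2 of 8 in control T cells lie near the share of all genes. The median log2 change of the list was -0.60 in B2m-null monocytes and -0.49 in B2m-null macrophages, against -0.003 and -0.012 for all genes. In B2m-null monocytes Elovl6, an elongase (-2.47 ± 0.40, adjusted p = 1.22e-05), and Fasn, the fatty acid synthase (-1.74 ± 0.29, adjusted p = 1.88e-05), fell. Elovl6 also fell in B2m-null macrophages (-1.34 ± 0.31, adjusted p = 0.00305) and T cells (-1.56 ± 0.27, adjusted p = 0.00101), and the desaturase Scd1 in B2m-null macrophages (-1.92 ± 0.52, adjusted p = 0.00923). In control macrophages Fads1, a desaturase (-0.99 ± 0.17, adjusted p = 0.000224), and Fasn (-0.82 ± 0.27, adjusted p = 0.0303) fell. In control monocytes 1 of 8 was called and it rose, the desaturase Scd2 (0.86 ± 0.19, adjusted p = 0.00184), where 9.50% of all genes rose. Scd2 fell in B2m-null T cells (-0.97 ± 0.19, adjusted p = 0.00295).

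Genes of sterol uptake, esters and lysosomes gave 3 called higher of 15 tested in control macrophages, and 3 higher and 1 lower of 15 in B2m-null macrophages, near the 13.8% and 15.7% of all genes that rose there. In monocytes 3 of 14 rose in control tumours, and 4 rose and 2 fell in B2m-null tumours, where 9.50% (control) and 17.9% (B2m-null) of all genes rose and 17.3% (B2m-null) fell. Vldlr, a lipoprotein receptor that MYLIP targets, rose in macrophages of control (2.88 ± 0.63, adjusted p = 0.00235) and B2m-null tumours (1.59 ± 0.55, adjusted p = 0.0337). Soat1, which esterifies cholesterol for storage, rose in control macrophages (1.04 ± 0.12, adjusted p = 6.17e-06). Fabp5, a fatty acid carrier, rose in monocytes of control (1.70 ± 0.41, adjusted p = 0.0133) and B2m-null tumours (1.48 ± 0.37, adjusted p = 0.00804) and fell in dendritic cells of control tumours (-1.55 ± 0.24, adjusted p = 0.000892). Lipa, the lysosomal lipase that frees cholesterol from its esters, rose in B2m-null monocytes (1.0 ± 0.16, adjusted p = 1.34e-05). Dendritic cells of B2m-null tumours had 6 of 14 lower, against 5.06% of all genes, among them the scavenger receptor Msr1 (-1.60 ± 0.48, adjusted p = 0.047) and the endocytic receptor Lrp1 (-1.02 ± 0.31, adjusted p = 0.0378). The T cell list had 1 higher and 3 lower of 12 in control tumours, against 16.7% and 18.2% of all genes, among the latter Scarb1, the receptor for high-density lipoprotein (-1.09 ± 0.42, adjusted p = 0.0489). The medians of this list were -0.80 in B2m-null dendritic cells and 0.34 and 0.18 in control and B2m-null monocytes, against 0.001, 0.001 and -0.003 for all genes.

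The last list held 6 LXR targets other than the 29 genes. In control T cells 2 of 5 tested rose, Smpdl3a, a secreted phosphodiesterase (0.85 ± 0.22, adjusted p = 0.00665), and Arl4c, a small GTPase (0.82 ± 0.25, adjusted p = 0.0206), and 1 fell (median 0.82, against -0.015 for all genes), where 16.7% of all genes rose and 18.2% fell. Smpdl3a rose in macrophages of control tumours (1.31 ± 0.13, adjusted p = 5.52e-07). Pltp, which transfers phospholipid between lipoproteins, rose in monocytes of control (1.49 ± 0.23, adjusted p = 0.000161) and B2m-null tumours (1.16 ± 0.23, adjusted p = 0.00082). Lpcat3, which remodels phospholipids, fell in control T cells (-0.74 ± 0.21, adjusted p = 0.0105) and macrophages (-0.45 ± 0.12, adjusted p = 0.00975). In B2m-null tumours 1 of 6 fell in each of macrophages, monocytes and dendritic cells, Arl4c in all 3, a name outside the rule for named genes, against 15.5%, 17.3% and 5.06% of all genes. Genes induced by tissue digestion moved in some of the same comparisons: of 6, 5 fell in B2m-null monocytes, 3 fell in B2m-null dendritic cells, 3 rose in control T cells and 3 rose in control dendritic cells. Of all genes, 17.3% and 5.06% fell in the first 2 of these comparisons, and 16.7% and 2.75% rose in the last 2. The part of the digestion genes was not tested.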

How the data were processed

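Single-cell RNA and hashtag counts were used from 8 lanes of CD45-enriched tumour cells. The deposited counts were made by the authors with bcl2fastq 2.20.0.422 and Cell Ranger 3.0.0 on the mm10 build, per the submitters' processing notes. The values are UMI counts per gene or hashtag and barcode, and no filter before deposit is named in the sources used here.

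Hashtag doublets (2 hashtags each over 2.5 SD above background) were dropped and no other doublet caller was run. Mixture models gave a cell to a mouse at 20 or more hashtag counts and a posterior of 0.9. Cells with 200 or more genes and at most 10% mitochondrial counts were clustered with scanpy 1.11.5 and leidenalg 0.10.2 (2000 variable genes without the 29 members, 40 components, 20 neighbours, resolution 1). The 91125 cells gave 27 clusters. They were named from marker lists, and 3 stayed unnamed. Counts were summed per mouse and cell set where there were 20 or more cells, which gave 35272 to 25793745 UMIs per sum.

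The sums of all 4 groups were fitted together with edgeR 4.0.16 (R 4.3.3), using filterByExpr, TMM scaling and the quasi-likelihood test, with Benjamini-Hochberg adjustment over all genes of a set, and the same code was tested on simulated counts. The alternatives were RLE scaling, no filter, DESeq2 1.42.0, limma 3.58.1 voom with the pool as a random effect, the lane as the unit with and without a replicate block, thinning to 1000 UMIs, marker gates, narrower classes, cycling cells (2 or more UMIs) left out, and each mouse and lane left out. A further 2, the macrophage set with 2 unnamed clusters and the classical monocyte cluster alone, were added after seeing the data. Every member past an adjusted p of 0.05 is named with its value in every mouse, and of the other lipid genes at most the 3 largest changes in each direction per set and CD40 comparison. The members and lists were chosen with earlier results of these data known. Some other genes of the pathway are not reported here.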

Additional observations from a re-analysis of the deposited data

Results flagged for a closer look

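The response to anti-CD40 differed between tumour genotypes for 15 combinations of gene and cell set, by edgeR's test of the difference itself at an adjusted p under 0.05. They were 6 of 29 members in T cells (20.7%, against 11.9% of all genes), 6 of 29 in macrophages (20.7%, against 15.7%), 2 of 27 in monocytes (7.41%, against 8.75%) and 1 of 28 in dendritic cells (3.57%, against 5.28%), so the monocyte and dendritic shares lie below those of all genes. Negative differences were called for 4.51%, 7.46%, 3.79% and 2.26% of all genes in these sets in that order, and positive ones for 7.43%, 8.24% and 4.96% in the first 3. Values are the log2 CD40 effect in B2m-null tumours minus that in control tumours. For the LXR targets each of the 6 differences was negative. They were -2.45 for Mylip and -1.80 for Abca1 in T cells, -1.47 for Mylip, -1.19 for Abca1 and -0.70 for Abcg1 in macrophages, and -2.52 for Mylip in dendritic cells. The dendritic difference rests on few UMIs in the B2m-null CD40 mice and lost its call with limma-voom. For the synthesis enzymes 8 of the 9 differences were positive. In T cells they were 1.65 for Fdps, 1.51 for Mvk, 1.21 for Ebp and 0.77 for Pmvk. In macrophages they were 1.34 for Fdps, 1.07 for Sqle and 0.85 for Ebp, and in monocytes 0.91 for Ebp. The exception was Hmgcs1 in monocytes at -1.06, where the fall was larger in B2m-null tumours. All 15 rest on the same 2 control CD40 mice, which came from 1 pool.

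Of 61 groups of 4 or 5 mice checked, 4 held a mouse far from the others by Dixon's criterion, and chance gives about 1 in 20. Abca1 in control isotype T cells reached 0.102 UMIs per 10000 in pool 2 mouse 2, above the other 4 mice. In macrophages Abcg1 was lowest, at 1.67, in 1 B2m-null isotype mouse and highest, at 1.72, in 1 B2m-null CD40 mouse. The 5 LXR and efflux genes summed to 1.91 in 1 B2m-null CD40 mouse's dendritic cells.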

How the results depend on the processing

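Of 3554 values of called members under the alternatives, 2988 kept direction and call, 564 lost the call and 2 reversed. For the 2 mice absent from the T cell set, the leave-one-out T cell values repeat the main fit and count as kept. Both reversals were of Abca1 in B2m-null monocytes, at -1.24 under the marker gates and -0.42 in the classical cluster alone. Calls were kept under all alternatives for 16 of 105 results. The counts that follow are of calls, so a member called in several sets counts once in each. They are given without the share of all genes called in the same fit. A change particular to the members and a change over all genes cannot be told apart from them. Summed over the 4 sets, CD40 against isotype in control tumours had 37 members called, 19 with the lane as the unit, 19 with thinned cells, 21 without cycling cells and 10 to 42 in leave-one-out fits, with 10 without control CD40 mouse 2, 22 without mouse 1 and 15 without control isotype replicate 1. In B2m-null tumours there were 32, 17 with thinned cells and 20 to 37 in leave-one-out fits, with 20 without B2m-null CD40 replicate 2. Between genotypes under isotype there was 1, against 5 under the gates, 2 with the wider macrophage set and 0 to 4 in leave-one-out fits. Between genotypes under CD40 there were 20, against 6 by lane, 13 with thinned cells and 5 to 23 in leave-one-out fits, with 5 without control CD40 mouse 2 and 10 without mouse 1. Differences in the CD40 effect numbered 15, against 5 by lane and 9 to 23 in leave-one-out fits, with 9 without control CD40 mouse 2 and 23 without B2m-null CD40 replicate 2. The causes were not tested.

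By set, counts of members called between CD40 and isotype moved by over 1.5 times as follows, again without the share of all genes in each fit. T cells of control tumours (14) gave 4 by lane, 4 with thinned cells and 4 without cycling cells, and those of B2m-null tumours (4) gave 7 without a count filter, 0 by lane and 1 with thinned cells. Control macrophages (9) gave 2 under the gates and 4 without cycling cells, and B2m-null macrophages (10) gave 4 with thinned cells. Control monocytes (14) gave 9 with DESeq2, 8 with limma-voom, 8 by lane, 9 with thinned cells, 0 under the gates and 5 in the classical cluster, and B2m-null monocytes (13) gave 8 and 6 in the gates and the classical cluster. B2m-null dendritic cells (5) gave 3 with limma-voom, 1 by lane, 1 with thinned cells, 11 under the gates and 3 without cycling cells, and control dendritic cells (0) gave 19 under the gates.

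With the replicate number as a replicate block, by lane, the 5 counts were 38, 35, 1, 19 and 13. This block fit kept the technical lanes of the control CD40 pool as separate samples, whereas the lane fit without a block merged them. Those lanes hold the same mice and are not independent, so the block counts do not show that the calls withstand blocking. The 91 of 105 calls that the block fit kept are among the values counted as kept above. Deviations of same-numbered pools correlated at -0.163 to 0.188, so the replicate numbers were not taken as a pairing. Thinning leaves low genes such as Abca1 in T cells with few UMIs, and depth limits what can be seen there. Where leaving out a lane or a control CD40 mouse leaves a group 1 sample, its spread is assumed to be that of the other groups.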
